A study of Mus musculus with 12 samples.

Results

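The 32 genes described here encode proteins of the chemical synapse: 22 act in the presynaptic terminal, in synaptic vesicles, the release machinery, the active zone and transmitter loading, and 10 act on the postsynaptic side as scaffolds, adhesion proteins and kinase subunits. Members were matched to the array by gene symbol, and each was represented by the transcript cluster of highest mean signal that carried exactly that symbol. All 32 had such a cluster, of 18820 genes with one on the array, and 4 members (*Nrxn2*, *Nlgn1*, *Unc13a* and *Bsn*) had more than 1. RNA came from hippocampus, and from a piece of ileum that the study describes as holding a Peyer's patch, of mice aged 6 weeks, after perfusion with saline. The strain is labelled C57BL/6J/CBA, and the line's founder, from an F1 oocyte of these strains, was crossed with C57BL/6J. FIRE +/+ mice carry both copies of the fms-intronic regulatory element, an enhancer inside *Csf1r*, and FIRE -/- mice carry none, in every cell, in a line descended from a single founder. Each genotype was measured on 3 arrays per tissue, 12 in all, with both sexes in every group by the labels, and no treatment is labelled.

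At a chemical synapse, an arriving action potential opens calcium channels and vesicles docked at the active zone fuse with the membrane. Fusion is driven by the SNARE proteins of vesicle and plasma membrane and is timed by synaptotagmin and complexin. Across the cleft, scaffold proteins of the postsynaptic density hold receptors and kinases in place, and neurexins and neuroligins join both sides. Microglia, the macrophages of the brain, engulf synaptic material during postnatal development and depend on CSF1R.

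*Csf1r* signal, given as the log2 value of robust multi-array averaging (RMA), was 8.34, 8.31 and 8.15 on the FIRE +/+ hippocampus arrays E07, F07 and G07 and 3.58, 3.69 and 3.65 on the FIRE -/- arrays A09, B09 and H07. Of 7 measured microglia genes, 6 fell in hippocampus (limma, adjusted p under 0.05), and their mean was between 6.97 and 7.25 in FIRE +/+ and between 4.07 and 4.42 in FIRE -/- mice. The sex genes of array B09 went against its female label: *Xist* was at 2.44 and *Eif2s3y* at 6.18 there, where the other arrays labelled female had at least 7.15 and at most 2.69. The hippocampus samples differed in adjoining tissue: the mean of 6 choroid plexus genes was 5.44 on F07 and between 7.44 and 8.75 on the other 5 arrays. The mean of 7 meningeal fibroblast genes was 6.74 to 7.10 in FIRE +/+ and 7.14 to 7.37 in FIRE -/- mice, with 0 genes called. Of these genes, *Slc6a13* and *Ogn* had genotypes that did not overlap, as had 9.66% of all clusters. *Col1a1*, *Col1a2*, *Dcn*, *Lum* and *Igf2* overlapped. The mean of 6 astrocyte genes was apart as well, at 9.59 to 9.77 and 9.79 to 9.86, with 0 genes called. Among them *Gfap* lay higher in FIRE -/- mice without overlap, at 9.59 to 9.77 against 8.99 to 9.28. *Aldoc* lay lower without overlap, at 11.88 to 11.92 against 11.93 to 11.97. *Aqp4*, *Aldh1l1*, *Slc1a3* and *Gja1* overlapped. The mean of 6 smooth muscle genes was 6.95 on A09 and 5.34 to 6.01 on the other hippocampus arrays. The part of these cells in the values below was not tested. In ileum, the mean of 7 B cell genes was 7.57 on D09 (FIRE +/+) and 7.73 on F09 (FIRE -/-) and between 3.23 and 3.54 on the other 4. On these 4, the B cell gene *Ms4a1* was at 2.14 to 2.68, where hippocampus arrays were at 1.85 to 2.26. *Pax5*, *Cr2*, *Fcer2a* and *Blk* overlapped hippocampus there as well. *Cd79a* and *Cd79b* were above hippocampus on all 4, at 3.37 to 5.59 against at most 2.93 and at 5.26 to 5.94 against at most 4.48. The tissue labels held: 7 principal neuron genes of the hippocampus had means of 8.09 to 8.36 there and 5.75 to 5.96 in ileum, and 6 intestinal epithelium genes had means of 2.99 to 3.78 and 11.48 to 11.79. In such bulk samples, fewer cells of a type and less RNA per cell cannot be told apart.

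None of the 32 synaptic genes was higher or lower in FIRE -/- than in FIRE +/+ hippocampus after adjustment over 21218 clusters (limma, lowest adjusted p of a member 0.992). Of all clusters, 0.448% were lower and 0% higher in FIRE -/- hippocampus. At an unadjusted p under 0.05 there were still 0 members, against 4.73% of all clusters in either direction. The one-way analysis of variance without moderation also called 0. The differences ran from -0.28 (*Bsn*) to 0.28 (*Slc17a6*) on the log2 scale, with a median of -0.01 over members and 0.01 over all clusters. A p that misses the threshold does not show that levels were equal, so the intervals matter here: the 95% confidence interval lay within 0.5 log2 units of 0, which is 1.41-fold, for 30 of 32 members and for 79.7% of all clusters. The exceptions were *Bsn* and *Slc17a6*. No member had genotypes that did not overlap, where 9.66% of all clusters did. With 3 arrays against 3, an exact permutation test of a single gene cannot give a p below 0.1.

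**Figure D1:**
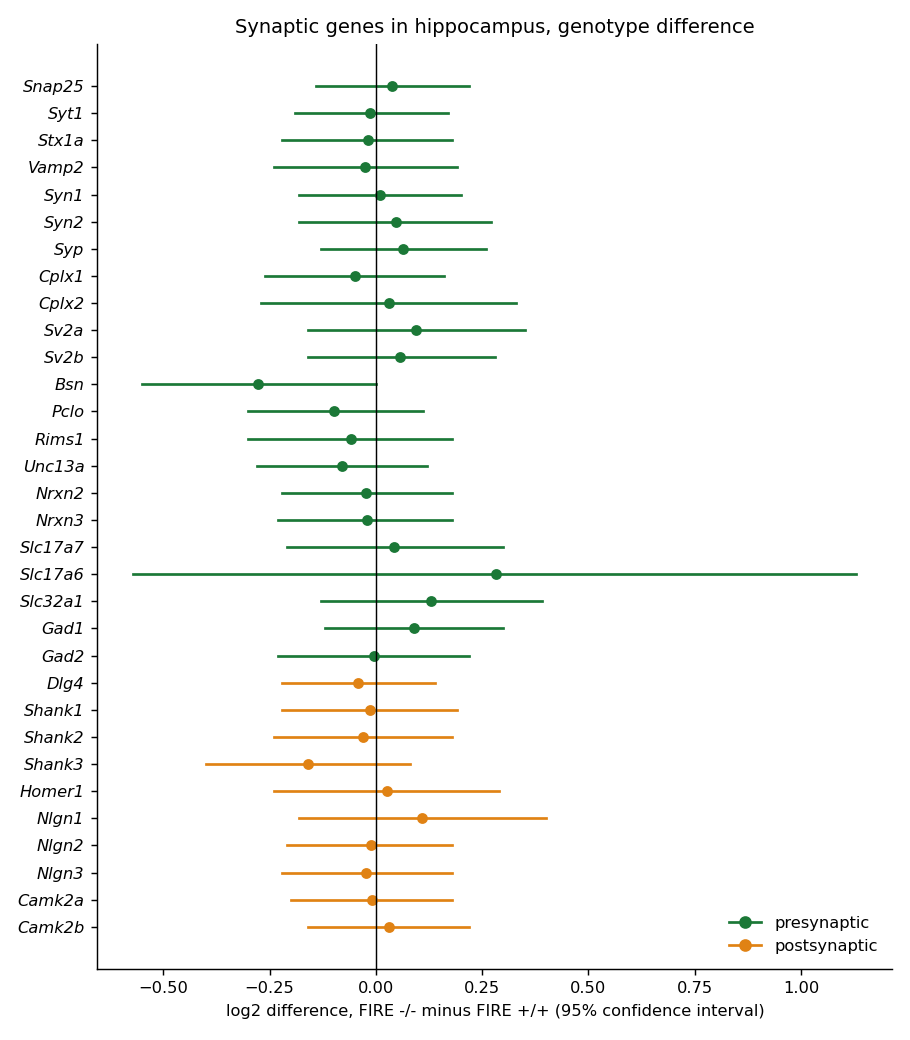
Log2 difference between FIRE -/- and FIRE +/+ hippocampus (horizontal axis) for each of the 32 synaptic genes, 22 presynaptic in green and 10 postsynaptic in orange, with points for the estimate and lines for the 95% confidence interval from 3 arrays per genotype. Every interval includes 0, and the interval of *Slc17a6*, from -0.57 to 1.13, is the widest.

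*Snap25*, which encodes the plasma membrane SNARE protein SNAP-25, read 12.34, 12.38 and 12.31 on the FIRE +/+ arrays and 12.38, 12.40 and 12.37 on the FIRE -/- arrays. The genotypes overlapped, and the difference was 0.04 (95% confidence interval -0.14 to 0.22). *Syt1*, the calcium sensor for fast release, lay between 12.02 and 12.08 on all 6 arrays and had a difference of -0.01 (-0.19 to 0.17). The vesicle SNARE gene *Vamp2* ranged from 11.51 to 11.72 with a difference of -0.03 (-0.24 to 0.19). *Stx1a*, which encodes the syntaxin that pairs with SNAP-25, ranged from 8.06 to 8.23 with a difference of -0.02 (-0.22 to 0.18).

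Among vesicle proteins, *Syn1* and *Syn2* encode synapsins, which tether vesicles to the cytoskeleton, and their differences were 0.01 (95% confidence interval -0.18 to 0.20) and 0.05 (-0.18 to 0.27). *Syp*, for the abundant vesicle protein synaptophysin, differed by 0.06 (-0.13 to 0.26). The complexins, which clamp and then promote fusion, were measured as a pair. *Cplx1* read 11.01, 11.16 and 11.04 in FIRE +/+ and 10.95, 11.03 and 11.09 in FIRE -/- hippocampus, a difference of -0.05 (-0.26 to 0.16). *Cplx2* read 9.18, 8.92 and 8.77 in FIRE +/+ and 9.15, 8.84 and 8.97 in FIRE -/-, a difference of 0.03 (-0.27 to 0.33). Its arrays spread more within a genotype (pooled SD 0.18) than those of *Cplx1* (0.08). The vesicle glycoprotein genes *Sv2a* and *Sv2b* were a second pair of paralogs. *Sv2a* read 10.62, 10.75 and 10.38 against 10.67, 10.64 and 10.73, a difference of 0.10 (-0.16 to 0.35), and its lowest value was on the FIRE +/+ array G07. *Sv2b*, also lowest on G07, read 11.28, 11.17 and 11.03 against 11.22, 11.16 and 11.28, a difference of 0.06 (-0.16 to 0.28).

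The active zone is the release site, and its scaffold gene *Bsn* (bassoon) had the lowest unadjusted p of the 32 members in hippocampus. *Bsn* read 9.04, 8.73 and 9.0 on the FIRE +/+ arrays and 8.64, 8.50 and 8.80 on the FIRE -/- arrays. The FIRE +/+ array F07 lay below the FIRE -/- array H07, so the groups overlapped. The 95% confidence interval of the difference of -0.28 ran from -0.55 to 0.00 (limma adjusted p = 0.992). With 1 array left out the difference ran from -0.37 without F07 to -0.20 without B09. Both hippocampus arrays coded 09, A09 and B09, are FIRE -/-, and H07 alone against the 3 FIRE +/+ arrays, all coded 07, gave -0.12, so for A09 and B09 code and genotype cannot be told apart. *Pclo*, for the related giant scaffold piccolo, read 9.38, 9.47 and 9.31 against 9.33, 9.20 and 9.33, a difference of -0.10 (-0.30 to 0.11), which was -0.06 without F07 or B09. *Unc13a*, which encodes the vesicle priming factor Munc13-1, read 9.49, 9.41 and 9.47 against 9.44, 9.29 and 9.40, a difference of -0.08 (-0.28 to 0.12), or -0.04 without B09. Array B09 gave the lowest value of all 6 for each of these 3 genes. *Rims1*, whose product links calcium channels to vesicles, differed by -0.06 (-0.30 to 0.18) and was also lowest on B09. All 4 active zone estimates were below 0 and none passed the test, where 52.5% of all clusters lay above 0. Related genes outside the membership, named after their values were seen, went both ways. *Rims4* (0.17), *Unc13b* (0.13), *Rimbp2* (0.12), *Erc2* (0.08), *Unc13c* (0.08), *Rims2* (0.07) and *Erc1* (0.02) lay above 0. *Rims3* was at -0.0, and *Ppfia2* (-0.17) and *Ppfia3* (-0.05) lay below. The neurexin genes *Nrxn2* and *Nrxn3*, presynaptic adhesion receptors, each differed by -0.02 (-0.22 to 0.18 and -0.23 to 0.18).

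Transmitter genes tell excitatory from inhibitory terminals. *Slc17a7*, the vesicular glutamate transporter VGLUT1 of hippocampal excitatory neurons, read 11.81, 11.86 and 11.53 in FIRE +/+ and 11.73, 11.74 and 11.85 in FIRE -/- hippocampus. The difference was 0.04 (95% confidence interval -0.21 to 0.30). *Slc17a6*, the VGLUT2 transporter typical of thalamic and other subcortical neurons, read 5.71, 7.41 and 6.50 in FIRE +/+ and 7.01, 6.71 and 6.74 in FIRE -/-. The 2 extreme values, E07 and F07, were both FIRE +/+ arrays, and all 3 FIRE -/- values lay between them. The difference of 0.28 (-0.57 to 1.13, limma adjusted p = 0.992) became 0.72 without F07 (adjusted p = 0.684) and -0.13 without E07 (adjusted p = 0.93). The within-genotype SD was 0.61, and no other member exceeded 0.18.

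The mean of 7 other thalamus genes, taken without *Slc17a6*, was 5.86 on E07, 6.35 on F07 and 6.02 on G07, and 6.06, 5.96 and 6.00 on A09, B09 and H07. *Slc17a6* and this mean were thus highest on F07 and lowest on E07 among the 6 arrays, and F07 was the array with low choroid plexus genes. *Tcf7l2*, *Rora*, *Rgs16* and *Tnnt1* had this order singly. *Prkcd* was lowest on H07 (6.80) and *Synpo2* on G07 (4.24), and *Lef1* was highest on B09 (5.84). The part of thalamus and choroid plexus in the *Slc17a6* values was not tested. The inhibitory genes did not share that spread. *Slc32a1*, the vesicular GABA transporter, read 6.90, 6.89 and 6.69 against 7.09, 6.78 and 7.0, a difference of 0.13 (95% confidence interval -0.13 to 0.39). It was 0.06 without G07 or A09 and 0.22 without B09. *Gad1* and *Gad2* encode the enzymes that make GABA. *Gad1* read 9.79, 9.92 and 9.70 against 9.94, 9.84 and 9.90, a difference of 0.09 (-0.12 to 0.30), or 0.04 without G07 and 0.15 without F07. *Gad2* read 8.72, 8.86 and 8.68 against 8.79, 8.63 and 8.82, and both genotypes averaged 8.75.

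**Figure D2:**
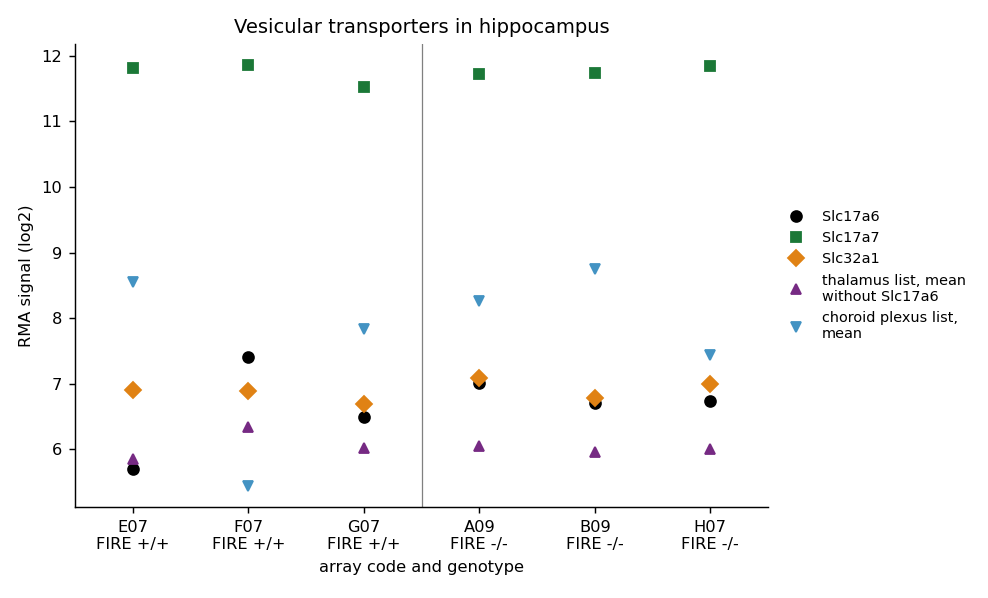
RMA signal (log2, vertical axis) on each hippocampus array for *Slc17a6*, *Slc17a7* and *Slc32a1* and for the mean of 7 thalamus and 6 choroid plexus genes, FIRE +/+ on the left and FIRE -/- on the right. *Slc17a6* runs from 5.71 on E07 to 7.41 on F07, while *Slc17a7* stays between 11.53 and 11.86.

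On the postsynaptic side, the scaffold gene *Dlg4*, which encodes PSD-95, read 11.39, 11.38 and 11.34 in FIRE +/+ and 11.33, 11.31 and 11.34 in FIRE -/- hippocampus. The difference was -0.04 (95% confidence interval -0.22 to 0.14). The Shank proteins form the next layer of the postsynaptic density. *Shank3* read 8.58, 8.36 and 8.68 against 8.38, 8.33 and 8.43, a difference of -0.16 (-0.40 to 0.08) and the lowest of the postsynaptic estimates. The 2 higher values were on the FIRE +/+ arrays E07 and G07, and F07 lay among the FIRE -/- arrays. The difference was -0.25 without F07 and -0.09 without G07. *Shank1* differed by -0.01 (-0.22 to 0.19) and *Shank2* by -0.03 (-0.24 to 0.18). *Homer1*, for a scaffold that couples metabotropic glutamate receptors to Shank, differed by 0.03 (-0.24 to 0.29).

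The neuroligins are the postsynaptic partners of neurexins. *Nlgn1*, found at excitatory synapses, read 8.76, 8.63 and 8.29 in FIRE +/+ and 8.65, 8.67 and 8.68 in FIRE -/- hippocampus, a difference of 0.11 (95% confidence interval -0.18 to 0.40). Without array G07, which held the lowest value, it was -0.03. *Nlgn2*, of inhibitory synapses, differed by -0.01 (-0.21 to 0.18), and *Nlgn3* by -0.02 (-0.22 to 0.18). *Camk2a* and *Camk2b* encode the alpha and beta subunits of the calcium/calmodulin kinase that is needed for long-term potentiation. *Camk2a*, which lies on the same chromosome as *Csf1r*, lay between 11.99 and 12.10 in FIRE +/+ and between 12.01 and 12.03 in FIRE -/-, a difference of -0.01 (-0.20 to 0.18). *Camk2b* ranged from 11.17 to 11.29 over the 6 arrays and differed by 0.03 (-0.16 to 0.22).

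Presynaptic and postsynaptic members both had medians close to 0. The median log2 difference was 0.00 for the 22 presynaptic members, of which 11 lay above 0 and 11 below, and -0.01 for the 10 postsynaptic members, of which 3 lay above 0 and 7 below. Of all clusters, 52.5% lay above 0. Taken as the median deviation from the FIRE +/+ mean of each gene, the presynaptic members were at 0.02, 0.05 and -0.08 on E07, F07 and G07 and at 0.01, -0.04 and 0.06 on A09, B09 and H07. The postsynaptic members were at 0.05, 0.00 and -0.03, and at -0.01, -0.06 and 0.04, on the same arrays. G07 and B09, of different genotypes, held the lowest value of 15 and of 13 of the 32 members. Both medians stayed within the spread of arrays of one genotype. Without B09, whose sex genes went against its label, 0 members were called.

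**Figure D3:**
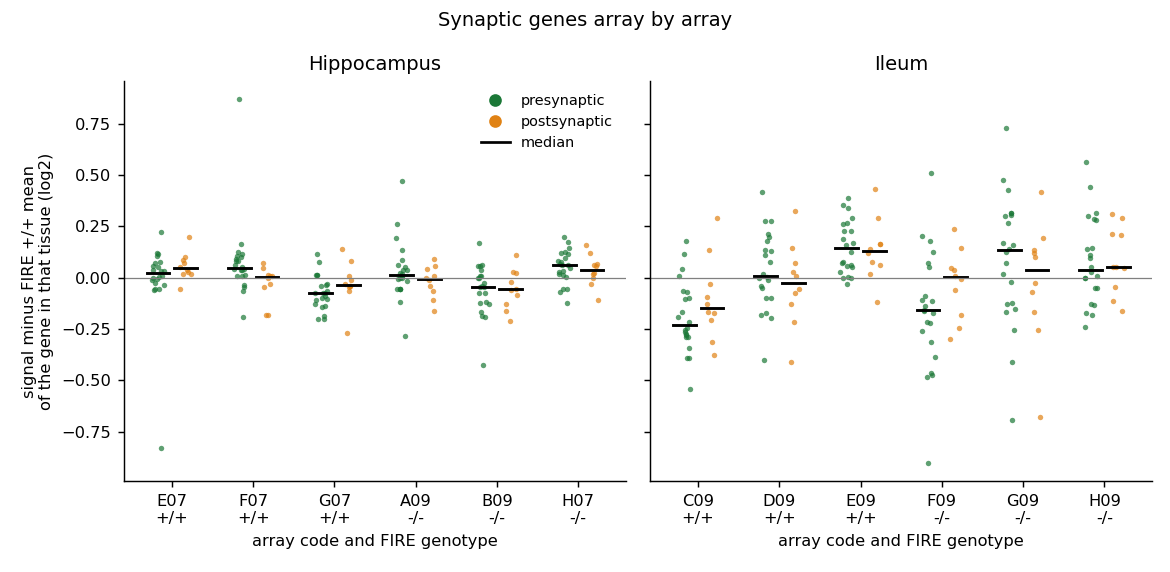
Signal of each synaptic gene minus its FIRE +/+ mean in the same tissue (log2, vertical axis) on each array, hippocampus on the left and ileum on the right, with a point per gene (presynaptic green, postsynaptic orange) and a black bar for the median. In hippocampus the medians lie between -0.08 and 0.06, and in ileum the presynaptic median is lowest on C09 (-0.23) and F09 (-0.16), one array of each genotype.

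A wider list of 87 synaptic genes outside the membership had 77 with a cluster, and 0 of them passed the test in FIRE -/- hippocampus (limma, 0 also at an unadjusted p under 0.05). Their median log2 difference was 0.06 for 44 presynaptic and -0.01 for 33 postsynaptic genes. The 4 with the lowest unadjusted p were *Ppfia2*, for the active zone scaffold liprin-alpha-2, at -0.17 (SE 0.09), *Rims4* at 0.17 (SE 0.09), the vesicle protein gene *Syngr1* at 0.14 (SE 0.08) and *Arc*, an activity-regulated gene of the postsynapse, at -0.39 (SE 0.26). The limma adjusted p of each was 0.992. Lists of hippocampal principal neurons and of inhibitory neurons, 7 measured genes each, also had 0 members called, with median differences of 0.05 and 0.00.

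Between tissues every member differed. All 32 synaptic genes were higher in hippocampus than in ileum (limma on all 12 arrays, highest adjusted p of a member 1.07e-08), where 32.2% of all clusters were higher and 36.1% lower. For each of the 32, every hippocampus array was above every ileum array. The median log2 difference was 5.14 over members, 5.18 for presynaptic and 4.88 for postsynaptic ones, and -0.05 over all clusters. It was 5.09 in FIRE +/+ mice alone and 5.10 in FIRE -/- mice alone, with 32 of 32 called in each. All 6 ileum arrays and 2 of the 6 hippocampus arrays carry 09 in their codes and the other hippocampus arrays 07, and with this number as a block all 32 were still called, in a fit whose code term rests on H07 against A09 and B09.

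*Slc17a7* differed the most, with hippocampus values between 11.53 and 11.86 and ileum values between 2.99 and 4.11. The log2 difference was 8.16 (SE 0.15, limma adjusted p = 1.44e-13), or 286-fold, against an ileum signal close to that of silent genes, as set out below. *Camk2a* ranged from 11.99 to 12.10 in hippocampus and from 5.01 to 5.74 in ileum, a difference of 6.59 (SE 0.10). *Shank1* ranged from 9.70 to 9.85 and from 3.29 to 3.63, a difference of 6.28 (SE 0.07). These were a transporter, a kinase and a scaffold of excitatory synapses. Of their paralogs among the members, *Camk2b* differed by 4.56 (SE 0.13), *Shank2* by 3.09 (SE 0.11) and *Shank3* by 3.40 (SE 0.10).

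The smallest tissue difference was that of *Homer1*, with 7.90 to 8.24 in hippocampus and 5.71 to 6.10 in ileum. Its log2 difference of 2.18 (SE 0.09, limma adjusted p = 3.61e-10) was 4.54-fold, and 9.09% of all clusters had a larger difference in that direction. *Vamp2* read 11.51 to 11.72 in hippocampus and 8.28 to 8.90 in ileum, a difference of 3.01 (SE 0.11), and *Shank2* read 8.13 to 8.35 and 4.80 to 5.5. *Stx1a* at 3.25, *Nlgn2* at 3.76 and *Rims1* at 3.93 followed, with *Shank3* among them. The release genes *Snap25* (4.76), *Syt1* (5.27), *Syn1* (5.80), *Syn2* (5.01), *Syp* (5.58) and *Pclo* (5.5) and the adhesion genes *Nrxn2* (4.86), *Nrxn3* (6.05), *Nlgn1* (5.21) and *Nlgn3* (5.19) lay in the middle, with *Dlg4* (5.52), *Unc13a* (5.09) and *Bsn* (4.49). Among the other paralogs, *Cplx1* differed by 6.17 (SE 0.18) and *Cplx2* by 4.18 (SE 0.12), *Sv2b* by 6.27 (SE 0.09) and *Sv2a* by 5.58 (SE 0.08). *Gad1* differed by 5.93 (SE 0.12).

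**Figure D4:**
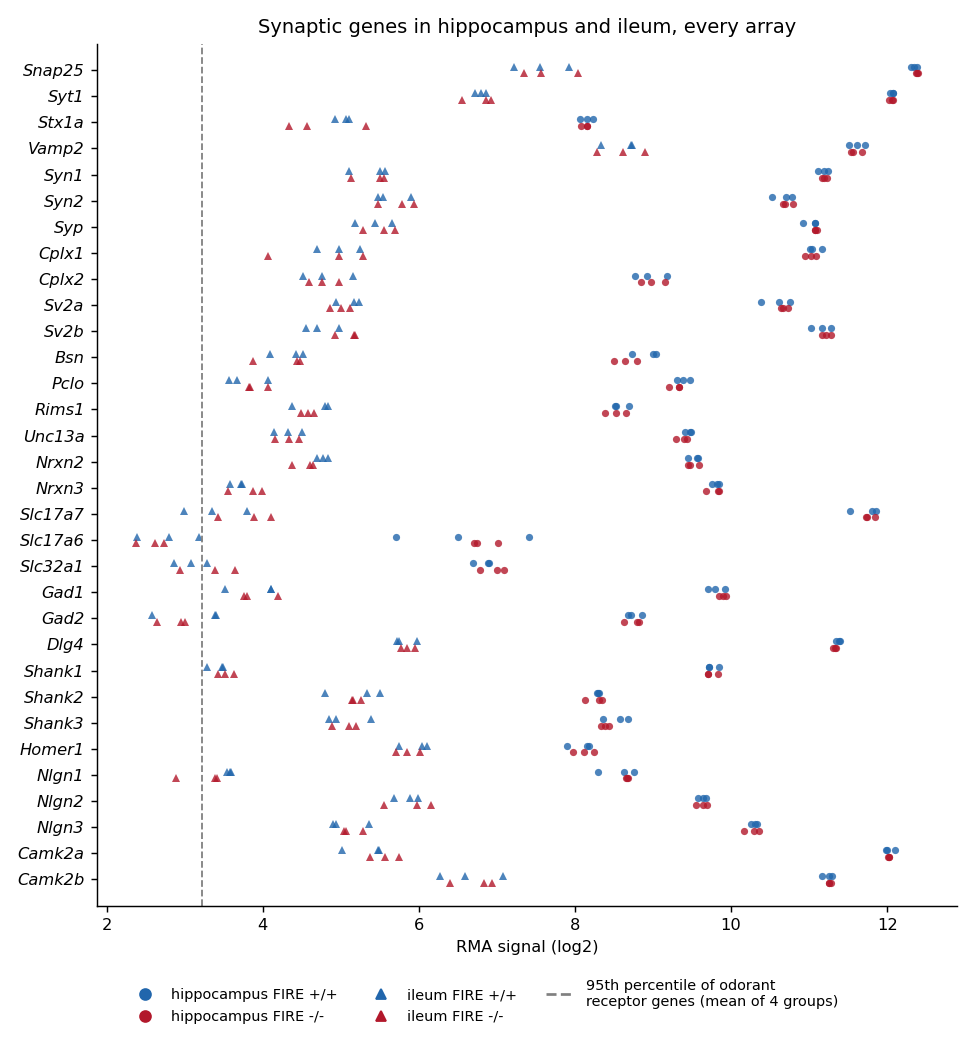
RMA signal (log2, horizontal axis) of each synaptic gene on every array, circles for hippocampus and triangles for ileum, blue for FIRE +/+ and red for FIRE -/-, with 3 arrays per group. All circles lie to the right of all triangles of the same gene, and the dashed line marks the 95th percentile of 990 odorant receptor genes. It is drawn midway between the lowest (3.18) and highest (3.25) of the 4 group values, which the legend calls their mean.

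Ileum levels were set against 990 odorant receptor genes, most of which are used in the olfactory epithelium alone. Their group means had a 95th percentile of 3.25 in FIRE +/+ and 3.23 in FIRE -/- ileum, and 29 and 30 of the 32 members lay above it, where 76.5% and 77.2% of all clusters did. *Slc17a6* and *Gad2* lay below in both genotypes and *Slc32a1* in FIRE +/+ only, so in those groups their ileum signal was no higher than that of silent genes. Their fitted differences, 4.0 for *Slc17a6*, 5.76 for *Gad2* and 3.69 for *Slc32a1*, depend on that floor and are given without rank. At the 99th percentile, 23 members lay above in each genotype, and *Pclo*, *Nrxn3*, *Slc17a7*, *Slc32a1*, *Gad1*, *Shank1* and *Nlgn1* were the others below it. Signals of different clusters also differ by their probes, so this is a description. Of the 77 other synaptic genes, 72 were higher in hippocampus, and 3 were higher in ileum: *Camk2d*, the delta subunit of the kinase,, with a hippocampus minus ileum difference of -1.18, the SNAP-25 relative *Snap29* at -1.07 and the priming factor *Unc13b* at -0.37 (limma, highest adjusted p of these 3 genes 0.00369). *Cask* and *Slc18a2* did not pass. These 5 are named after their values were seen.

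Many neuronal genes are held silent outside the nervous system by the repressor REST, which binds the RE1 element, and some carry a cAMP response element. Since all members were higher in hippocampus, their promoters were searched on both strands for the left part of RE1, TTCAGCACC, and for the cAMP response element TGACGTCA. RefSeq windows on GRCm38.p6, from 250 bases before to 50 after the start of the gene, were at hand for 25 of the 32 members. The RE1 letters were in the windows of 3 members, *Syn1*, *Nlgn1* and *Unc13a*. They were in windows of 0.433% of all 27025 genes with a window, and in 0.371% of all 32851 windows. The cAMP response element was in the window of *Syn1*, in windows of 2.03% of all genes and in 1.79% of all windows. The letters do not overlap each other. The windows of these 3 genes follow, on the strand of the gene, with the matches in capitals.
Syn1, chrX:20920869-20921168, minus strand: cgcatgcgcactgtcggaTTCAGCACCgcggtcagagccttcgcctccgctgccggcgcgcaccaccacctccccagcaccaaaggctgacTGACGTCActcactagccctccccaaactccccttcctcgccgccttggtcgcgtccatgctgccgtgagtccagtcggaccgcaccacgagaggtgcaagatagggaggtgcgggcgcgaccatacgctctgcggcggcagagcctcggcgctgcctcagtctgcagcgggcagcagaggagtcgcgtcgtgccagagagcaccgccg
Nlgn1, chr3:26153937-26154236, minus strand: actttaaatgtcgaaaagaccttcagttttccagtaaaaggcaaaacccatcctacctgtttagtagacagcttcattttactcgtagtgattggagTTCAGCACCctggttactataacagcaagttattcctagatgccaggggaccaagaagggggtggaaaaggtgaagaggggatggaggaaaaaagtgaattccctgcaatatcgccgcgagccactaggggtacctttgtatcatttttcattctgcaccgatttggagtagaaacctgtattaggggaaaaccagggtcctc
Unc13a, chr8:71671708-71672007, minus strand: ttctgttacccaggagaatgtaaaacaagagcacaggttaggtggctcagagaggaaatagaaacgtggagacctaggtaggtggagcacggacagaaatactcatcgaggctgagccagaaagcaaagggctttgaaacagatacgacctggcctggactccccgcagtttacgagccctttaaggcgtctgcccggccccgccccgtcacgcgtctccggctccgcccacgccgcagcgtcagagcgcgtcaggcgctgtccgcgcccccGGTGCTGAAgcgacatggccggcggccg

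In *Syn1* the RE1 letters began 232 bases before the start and the cAMP response element 159 bases before it. In *Nlgn1* the RE1 letters began 153 bases before the start, and in *Unc13a* they lay 22 bases after it in the opposite orientation, as GGTGCTGAA. The hippocampus minus ileum differences of these genes were 5.80, 5.21 and 5.09, beside the median of 5.14 over all members. A match is a stretch of letters and not a measured binding site, and its absence from a window says nothing of the factor.

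Within ileum the median within-genotype SD of the members was 0.23, and that of all clusters 0.18, not matched on signal. Among members above the odorant receptor level in both genotypes, *Cplx1*, *Slc17a7*, *Stx1a* and *Snap25* varied most. *Cplx1* read 4.70, 5.25 and 4.97 on the FIRE +/+ arrays C09, D09 and E09 and 4.07, 5.29 and 4.97 on the FIRE -/- arrays F09, G09 and H09. *Snap25* read 7.22, 7.55 and 7.92 against 7.35, 8.04 and 7.56. Both were lowest on C09 and F09, one array of each genotype, and so was *Vamp2*, at 8.33 on C09 and 8.28 on F09 and at least 8.62 elsewhere. *Slc17a7* read 2.99, 3.80 and 3.35 against 3.89, 4.11 and 3.43, and *Stx1a* read 4.93, 5.11 and 5.06 against 4.56, 4.34 and 5.32. Neither followed the order of *Snap25*: *Slc17a7* was second highest on F09, and *Stx1a* was lowest on G09. Of the other vesicle and release members, *Syn1*, *Syn2* and *Cplx2* were also lowest on C09 and F09. *Syt1*, *Syp*, *Sv2a* and *Sv2b* were not. *Syt1* was lowest on H09, at 6.55, *Syp* read 5.55 and *Sv2b* 4.92 on F09, and *Sv2a* was highest on C09, at 5.23.

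Ileum holds 2 kinds of cell that use vesicle release genes, the neurons of the gut wall and the hormone-secreting enteroendocrine cells of the epithelium. The mean of 12 enteroendocrine genes, none of them a member, was 6.39 on C09 and 6.33 on F09 and 7.03, 7.0, 7.17 and 6.81 on D09, E09, G09 and H09. Their defining marker *Chga*, for chromogranin A, was at 7.72 on both C09 and F09 and between 8.86 and 9.46 on the other 4. Unlike the rest of the list, *Scg2*, *Pax6*, *Nts* and *Sct* did not have their 2 lowest values on C09 and F09. *Sct* was highest on F09, at 6.48. The mean of 12 enteric neuron genes moved less, from 5.37 to 5.74, and was 5.48 on C09 and 5.38 on F09. Within this list *Uchl1*, at 5.17 on C09 and 5.54 on F09, and *Chat* had their 2 lowest values there, and the rest did not. *Chat* and *Nefm*, at 2.86 to 3.61 and 2.79 to 3.16 in ileum, lay near the level of silent genes. The mean of 6 smooth muscle genes ranged from 10.68 to 11.25. The part of these cells in the values of *Snap25*, *Cplx1* and *Vamp2* was not tested.

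**Figure D5:**
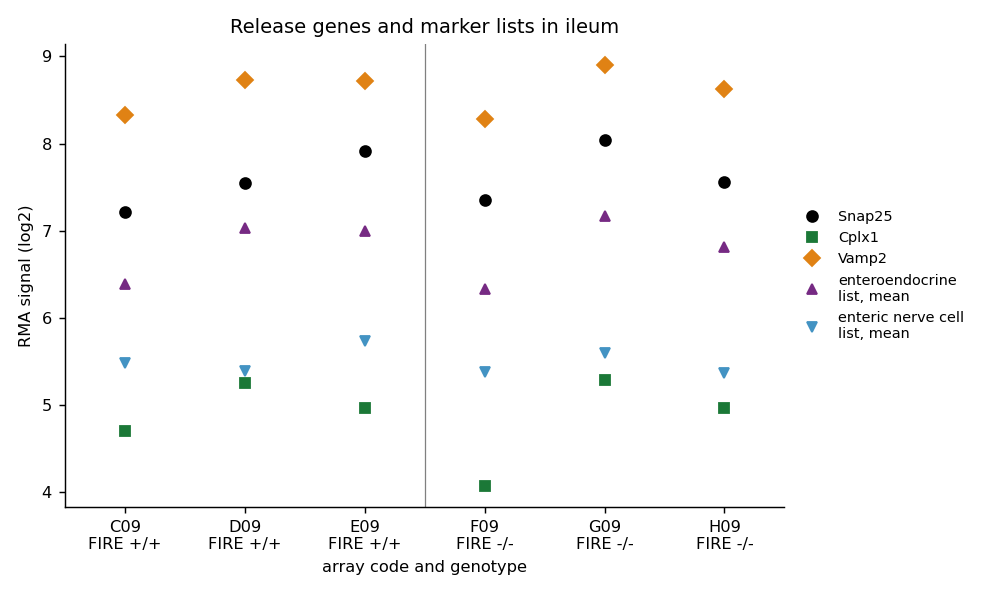
RMA signal (log2, vertical axis) on each ileum array for *Snap25*, *Cplx1* and *Vamp2* and for the means of 12 enteroendocrine and 12 enteric neuron genes, FIRE +/+ on the left and FIRE -/- on the right. The 3 release genes drawn and the enteroendocrine mean are lowest on C09 and F09. *Syt1*, *Stx1a*, *Syp*, *Sv2a* and *Sv2b*, which are not drawn, do not share this order.

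In ileum none of the 32 members passed the test between FIRE -/- and FIRE +/+ mice (limma, adjusted p of each member 0.999), and 0% of all clusters were called in either direction. At an unadjusted p under 0.05 there was 1 member, against 3.39% of all clusters. It was *Sv2b*, which read 4.55, 4.70 and 4.97 in FIRE +/+ and 4.92, 5.17 and 5.18 in FIRE -/- ileum, a difference of 0.36 (95% confidence interval 0.01 to 0.70). The genotypes did not overlap for 2 members, against 8.04% of all clusters. *Nlgn1* read 3.54, 3.58 and 3.59 against 3.39, 2.89 and 3.41, a difference of -0.34 (-0.71 to 0.03), and *Nrxn2* read 4.70, 4.77 and 4.83 against 4.38, 4.6 and 4.64, a difference of -0.23 (-0.50 to 0.04). The *Nlgn1* means, 3.57 and 3.23, lay below the 99th percentile of odorant receptor genes in both genotypes. Its second cluster averaged 3.83 in FIRE +/+ and 3.66 in FIRE -/- ileum. The median over members was 0.01 and over all clusters -0.01. The ileum was measured less precisely: the interval lay within 0.5 log2 units of 0 for 19 of 32 members and for 58.8% of all clusters. Without D09 and F09, a setting chosen after the values were seen, 0 members were called.

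The genotype difference in hippocampus was then set against that in ileum for each gene. No member passed this test of the interaction (limma on all 12 arrays, adjusted p of each 1.0), where 0.0895% of all clusters were lower and 0% higher. At an unadjusted p under 0.05 there were 0 members, against 4.21% of all clusters. The interaction was measured less precisely than the difference in hippocampus. Its 95% confidence interval lay within 0.5 log2 units of 0 for 10 of 32 members and for 33.7% of all clusters. The largest differences between tissues in the genotype effect were 0.50 for *Slc17a6* (SE 0.48) and 0.45 for *Nlgn1* (95% confidence interval -0.01 to 0.91), and the lowest was -0.39 for *Slc17a7* (SE 0.29). The *Slc17a6* value was 0.93 without F07 and 0.08 without E07, and its ileum signals lay between 2.38 and 3.18, at the level of silent genes. In ileum, *Nlgn1* and *Slc17a7* also averaged below the 99th percentile of odorant receptor genes in both genotypes.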

How the data were processed

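RNA from hippocampus and ileum was hybridised by the authors to Affymetrix Mouse Gene ST arrays, and the deposited table holds log2 signals that the authors made by RMA (no version stated). RMA corrects the background and equalises the distributions of the arrays, so a shift shared by all genes would not be seen. Values ran from 0.50 to 12.99, with array medians from 4.29 to 4.46, and were used as deposited. The platform annotation gave the symbols. Tests ran on the 21218 clusters that it ties to a single gene, and not on 1881 with several symbols or 12457 with none.

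Genotypes were compared within each tissue, and tissues and the interaction on all 12 arrays, by lmFit and eBayes of limma 3.58.1 (R 4.3.3), two-sided, without covariates or a filter. P-values were adjusted over all tested clusters by Benjamini-Hochberg at 0.05. The scripts were tested on simulated data. The labels number no replicates and nothing says whether the same mice gave both tissues, so p-values measure the spread between these arrays only.

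The members and gene lists were chosen with earlier results of these data known. All 32 members are named. Values on each array are given for the 6 smallest unadjusted p and the 3 lowest and 3 highest differences in hippocampus, the 3 largest and 3 smallest differences between tissues (as ranges), the 4 highest spreads in ileum, and the paralog pairs, with others for comparison. Alternatives covered the shrinkage, normalization, clusters, sex, code number and each array. For arrays, their number limits the precision.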

Additional observations from a re-analysis of the deposited data

How the results depend on the processing

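In hippocampus 0 members were called in either direction under all 17 alternatives, among them an intensity trend, the analysis of variance without moderation, a further quantile normalization, tests on every cluster, a limit on dim ones, array weights, the mean of a gene's clusters, labelled sex, a fit of all 12 arrays and each array left out, and the lowest adjusted p of any member was 0.684 (*Slc17a6* without F07). In ileum 0 were called under 16 alternatives (lowest adjusted p 0.767, *Sv2b* with all 12 arrays in the fit), and for the interaction 0 under 22 (0.499, *Stx1a* without H09). Between tissues 32 were higher under all 24. The presynaptic median in hippocampus lay between -0.023 and 0.030 with 1 array left out, and the postsynaptic median, -0.013 in the main setting, between -0.045 and 0.025. The 2 settings on the code number, only arrays coded 07 and the code as a block, compare H07 alone with the 3 FIRE +/+ arrays, since A09 and B09 are the only hippocampus arrays coded 09. They say nothing of stability. In them the postsynaptic median was 0.040 and the presynaptic 0.061, close to the deviations of H07 (0.04 and 0.06), and the lone array was assumed to vary like the others. At the 99th percentile of odorant receptor genes 23 members were above the level in both ileum groups, and against the median of all clusters 21. No paired analysis was possible because the labels give no replicate numbers. With 3 arrays a group, small differences, above all in ileum and in the interaction, were not detectable.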

Other observations

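Second clusters of the same gene gave smaller tissue differences. *Bsn* had a second cluster at 5.56 in FIRE +/+ and 5.33 in FIRE -/- hippocampus, with a genotype difference of -0.22 (SE 0.18) and a hippocampus minus ileum difference of 0.66, where its main cluster had 4.49. *Nlgn1* (1.54 against 5.21) and *Nrxn2* (1.56 against 4.86) showed the same order, and the *Unc13a* clusters were closer, at 4.14 and 5.09. For each of these 4 genes the genotype difference had the same sign in both clusters, and none passed the limma test (adjusted p = 0.992).

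*Slc17a8*, which encodes the third vesicular glutamate transporter, was outside the membership and is named after its values were seen. It read 3.94 in FIRE +/+ and 3.23 in FIRE -/- ileum, a difference of -0.71 (SE 0.26, limma adjusted p = 0.999). Both means were near the level of silent genes. The 99th percentile of odorant receptor genes was 3.96 in FIRE +/+ ileum, and their 95th percentile was 3.23 in FIRE -/- ileum.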
